A study of Mus musculus with 2 samples.

Results

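The 1447 windows described here are sites taken as far from gene starts at which GPS2 was listed in 3T3-L1 cells before adipogenesis and listed again on day 6 of it. They were taken from the authors' day 0 list of 7652 windows in the deposited order. The 2500 rows at its outer ends (rows 1 to 1150 and 6303 to 7652) were considered, and a window was kept if at least 1 bp of it overlapped any of the 19794 day 6 windows. This left 685 windows of the first end, called the upstream end below, and 762 of the last, called the downstream end. The 5152 rows between the ends are called the middle rows, and 4082 of them met the same overlap rule. Those 4082 kept middle windows serve as the comparison. Both the list order and the overlap come from the measured windows, so membership itself is a choice made on the data and not a finding.

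3T3-L1 is an established mouse preadipocyte line that becomes adipocyte-like after hormonal induction. The day 0 group was cells before induction, and the day 6 group was cells on that day of induced adipogenesis. Both were plain 3T3-L1 cells with no further genotype or agent in the labels. Each day had 1 library of chromatin immunoprecipitation followed by sequencing (ChIP-seq) on an Illumina GAII, with rabbit antibodies to peptides of the N-terminus or C-terminus of GPS2. The labels do not tie either antibody to a library, and no input library was analysed here. With 1 library a day there is no replicate, so no test between days was possible. Every interval below is a 95% interval for counting error only and leaves out variation from culture to culture.

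GPS2 is a small subunit of the NCoR and SMRT corepressor complexes, in which the histone deacetylase HDAC3 resides, and it is also known for roles in inflammatory signalling and in fat cells. Corepressor complexes are brought to chromatin by nuclear receptors and other transcription factors. Sites far from gene starts often lie in enhancers, where the receptors that drive fat cell formation also bind. The deposited lists hold positions in the mouse build mm8 and no gene names, and no mm8 annotation was used here, so the windows are named by chromosome, start and end, and whether they lie in exons, introns or between genes was not analysed here.

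The day 0 library held 4258133 reads and the day 6 library 3543507. Read counts are therefore compared per 1000000 reads of the library (RPM), or as the density in a window over that of its flanks, meaning the free sequence within 5 kb on both sides. Outside all windows the density was 1.45 reads per kb at day 0 and 1.14 at day 6. Every window was 2000 bp wide.

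The order of the list was examined first, because it is what made these windows distal. A list sorted by signed distance to a gene start should keep that order when a second list is made from another library. Among the 1447 kept distal windows, the row in the day 0 list and the row of the overlapping window in the day 6 list had a Spearman correlation of 0.99962, against 0.70094 among the 4082 kept middle windows. These are descriptions over windows of the same 2 lists. Of the 1447, 1444 had their day 6 window on the same side of the day 6 list, and 3 did not. The sides were its rows up to 5200 and its rows beyond 12200. They include windows near the reference point, so the count bears on the side and not on the distance.

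The order could be turned into an approximate distance. Neighbouring windows that share a gene start differ in distance to it by exactly their spacing on the chromosome, so pairs of day 6 windows within 10 kb of each other give the base pairs that 1 row spans. Read this way, the inner limits of the ends lay at about 10 kb (row 1150) and 13.5 kb (row 6303). The median distance was 41.7 kb at the upstream end and 53.7 kb at the downstream end. The outermost rows came out at 449.5 kb and 892 kb, which is rough, since the outermost 200 day 6 rows of each end rested on 5 and 4 pairs. In the day 0 list, 232 pairs of outer windows lay within 10 kb of each other on a chromosome, and for 165 of them (71.1%) the distance read from the rows matched the distance on the chromosome within 10% or 200 bp. The day 0 distances were carried over from the day 6 rows through overlapping windows, so this match is partly built in.

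**Figure D1:**
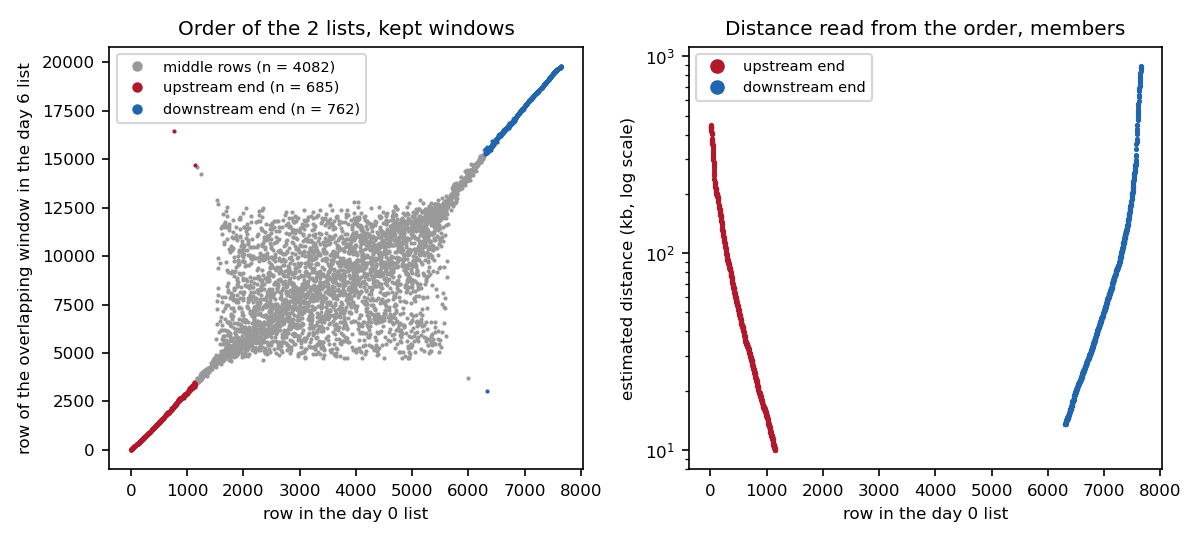
Left, row in the day 0 list (x axis) against row of the overlapping window in the day 6 list (y axis), 1 point per kept window. The 685 upstream (red) and 762 downstream (blue) windows lie on narrow lines while the 4082 middle windows (grey) scatter. Right, distance in kb (log scale) read from the list order for the kept distal windows. It starts near 10 kb at the inner limit of the upstream end and 13.5 kb at that of the downstream end, and passes 100 kb at both ends.

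For 405 kept distal windows, the overlapping day 6 window had a neighbour within 20 kb in the day 6 list. Such pairs also gave the direction of the unknown reference point on the chromosome. Only pairs whose row distance matched the distance on the chromosome within 10% or 200 bp were used. Windows with conflicting pairs were left out. The shares below therefore hold for windows already chosen to match the row distances. In 207 of the 405 the reference strand was plus. A window of the inner rows of the day 6 list (after row 5200 and up to row 12200) was looked for at the predicted point. It lay within 3 kb for 158 of the 405 (39.0%, 34.2 to 44.0). At the mirror position, the same distance on the other side, this held for 9 (2.22%, 1.02 to 4.18). The share was 32.8% (26.2 to 39.9) for the upstream and 44.6% (37.8 to 51.5) for the downstream end. With the middle rows of the day 0 list instead it was 33.8% (29.2 to 38.7), or 137 of the 405. By end these day 0 shares were 34.9% (28.2 to 42.1) upstream and 32.9% (26.6 to 39.6) downstream. None of the 12 upstream and 15 downstream windows placed beyond 100 kb had such a window, which allows shares of up to 26.5% and 21.8%, and the distances there are too coarse for a margin of 3 kb. The reads of distal windows with an inner day 6 window at the predicted point changed by a factor of 1.22 (1.19 to 1.26) from day 0 to day 6, and of those without by 1.25 (1.21 to 1.29).

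A smaller share of the outer than of the middle rows was listed again at day 6, and most windows with many reads were listed on both days. Of the upstream rows 59.6% (56.7 to 62.4) overlapped a day 6 window, of the downstream rows 56.4% (53.8 to 59.1), and of the middle rows 79.2% (78.1 to 80.3). The day 0 read count of a window went with this share. With 10 to 14 day 0 reads, 38.6% of the upstream, 37.3% of the downstream and 58.6% of the middle windows were listed again. With 20 to 29 reads the shares were 75.8%, 77.6% and 89.5%, and with 50 reads or more 92.4%, 96.2% and 98.9%. The intervals of the 2 ends overlapped in every class of day 0 reads. The outer windows that were not listed again numbered 1053, with a median of 13 reads at day 0 and 7 at day 6.

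**Figure D2:**
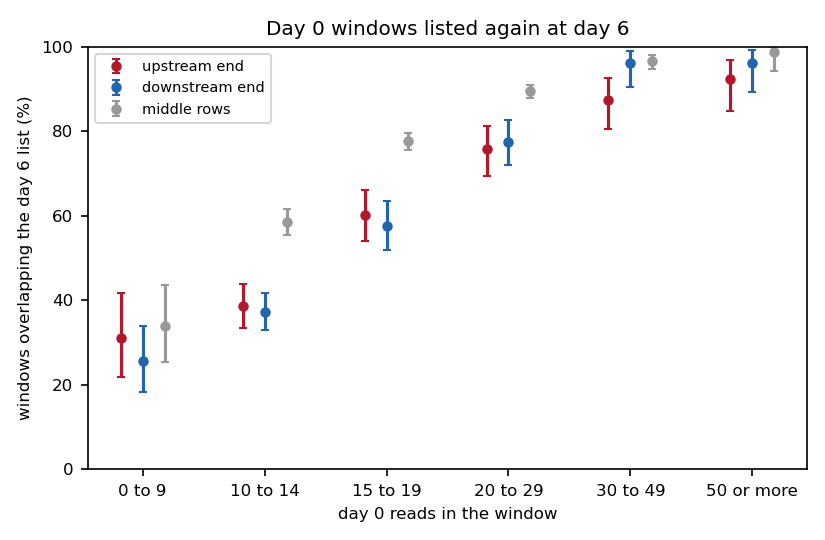
Share of day 0 windows that overlap a day 6 window (y axis, percent) by day 0 reads in the window (x axis), with exact 95% intervals. The share rises with reads in all 3 groups, and from 10 to 29 reads both ends lie below the middle rows.

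Windows just inside and just outside the limits of the rule had similar median counts at day 0. Of the 10 rows just inside the upstream limit 6 were kept, with median counts of 15 reads at day 0 and 16.5 at day 6 over all 10, and of the 10 rows just outside it 3 were, with medians of 15 and 9.5. The deepest of the 10 inside held 416 and 371 reads. At the downstream limit 5 of 10 inside were kept, with medians of 16.5 and 12.5 and a deepest window of 74 and 83 reads, and 4 of 10 outside, with 16 and 7.5. The 38 windows that overlapped a day 6 window by no more than 500 bp had a summed ratio of day 6 to day 0 of 0.776 (0.691 to 0.872). The 24 outer windows that missed a day 6 window by a gap of no more than 500 bp had 0.858 (0.745 to 0.987).

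The kept distal windows took a somewhat larger share of the day 6 library than of the day 0 library. A window held 7 to 958 reads at day 0, with a median of 20, and 3 to 950 at day 6, with a median of 21. In RPM the medians were 4.70 and 5.93. All windows together held 48890 reads at day 0 (1.15% of the library) and 52821 at day 6 (1.49%), a ratio of RPM of 1.30 (1.28 to 1.31). The median over windows was 1.28 (1.25 to 1.30). The central 90% of the windows had ratios between 0.704 and 2.18, and 1122 of 1447 (77.5%) had a ratio above 1. A window could be listed without standing above its flanks, and 19 of the 1447 had a fold below 1 on at least 1 day.

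This ratio describes windows chosen because both lists hold them, and windows that failed the choice went the other way. The 1053 outer windows not listed again had a summed ratio of 0.730 (0.712 to 0.749). The kept middle windows, chosen by the same overlap, had 1.35 (1.34 to 1.36). The kept distal ratio was 0.960 (0.945 to 0.974) times that of the kept middle. In the flanks of the kept distal windows the ratio was 1.02 (1.01 to 1.04). With the libraries scaled so that the kept middle windows had a median ratio of 1, which moves every log2 ratio by -0.41, the summed distal ratio was 0.980. That scaling shifts all windows alike and places the distal windows slightly below the middle ones, as the unscaled ratios do.

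Over all kept distal windows, the change from day 0 to day 6 at the upstream end and that at the downstream end differed by less than counting error. The upstream counts were 23974 and 25822 reads, with a ratio of 1.29 (1.27 to 1.32). The downstream counts were 24916 and 26999, with a ratio of 1.30 (1.28 to 1.32). The upstream ratio divided by the downstream ratio, in which the library scaling cancels, was 0.994 (0.970 to 1.02). Without the windows of over 100 reads in either library it was 0.969 (0.940 to 0.999), an interval that leaves out 1, with the upstream change the smaller. Median counts were 20 and 22 upstream and 19 and 21 downstream. Over the flanks the reads stood 5.24-fold at day 0 and 6.76-fold at day 6 upstream, and 5.18-fold and 6.51-fold downstream. Both ends together gave 5.21-fold and 6.63-fold, the kept middle windows 4.84-fold and 6.28-fold, and the outer windows not listed again 2.78-fold and 1.98-fold. These folds need no scaling between libraries, and at the kept distal windows they were higher at day 6. Like the ratios, they describe windows chosen because the day 6 list holds them, so the rise is no independent evidence of a gain.

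Changes of single windows were counted as a description. In place of a test, a size rule called a window higher at day 6 if its ratio reached 2 and lower if it was 0.5 or less, provided that the larger count was 10 or more. Of the 1447, 139 were higher (9.61%), against 10.3% of all kept windows and 7.50% of all windows of the day 0 list. The lower windows numbered 19 (1.31%), against 0.922% and 6.14%. Because the overlap rule used the day 6 library, nothing is read from these shares. The higher calls split into 66 upstream and 73 downstream, the lower into 11 and 8. Higher calls made up 88.0% of the calls, and 27.5% with the libraries scaled to the kept middle windows, where 22 were higher and 58 lower. The higher windows had a median of 18 reads at day 0, and 80 of the 139 had fewer than 20, so most single ratios rest on few reads.

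**Figure D3:**
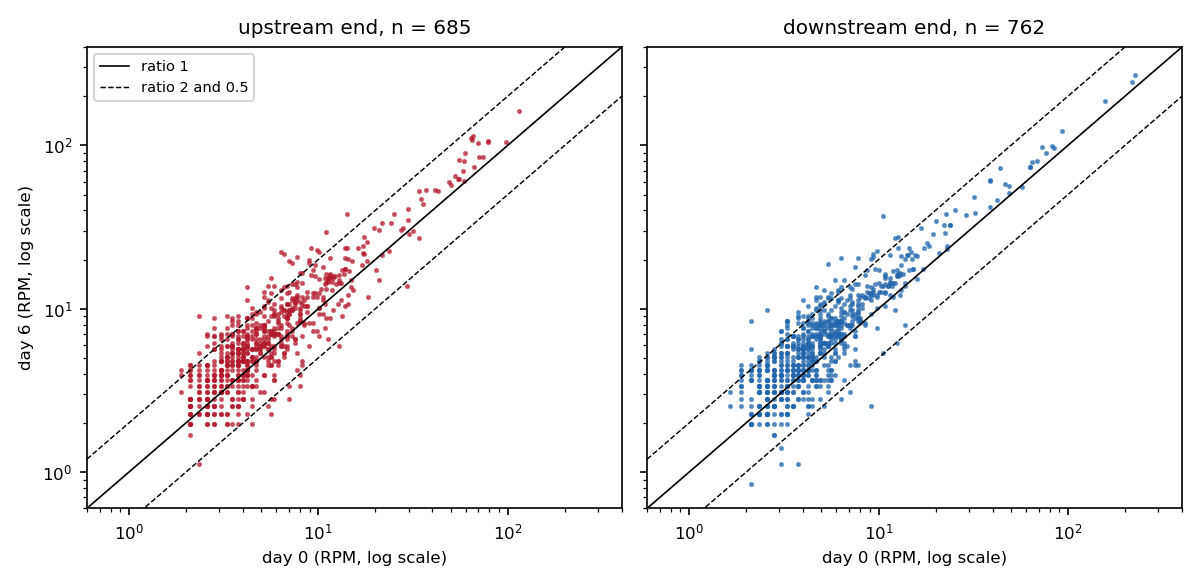
RPM at day 0 (x axis) against day 6 (y axis), both on log scales, 1 point per kept distal window, with the 685 upstream windows on the left and the 762 downstream windows on the right. Solid lines mark a ratio of 1 and dashed lines ratios of 2 and 0.5. Most points lie between the solid and the upper dashed line at both ends.

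The windows with the largest ratios, among those with at least 20 reads in either library, held 9 to 45 reads at day 0 and 30 to 131 at day 6. At the upstream end, chr2:51768016-51770015 rose from 27 to 79 reads (ratio 3.52, 2.25 to 5.66) and its fold over the flanks from 9.3 to 34.8. Upstream window chr5:52879863-52881862 held 28 and 77 reads (ratio 3.30, 2.12 to 5.29). At the downstream end, chr5:25325458-25327457 went from 45 to 131 reads (ratio 3.50, 2.48 to 5.02) and from 10.7-fold to 40.8-fold over the flanks. That window holds the most day 6 reads of these. Downstream window chr7:113851692-113853691 held 27 and 72 reads, and chr15:35761721-35763720 held 23 and 67. The single largest ratio, 4.01 (1.85 to 9.59), rested on 9 and 30 reads at chr7:137119860-137121859. All lower bounds of these intervals lay above 1, but the windows were picked for their large ratios among 910. The bounds therefore carry no test.

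Windows called lower often had another kept distal window nearby, or shared a day 6 window with one. Of the 19 lower windows 12 had another kept distal window within 50 kb (63.2%), against 20 of the 139 higher windows (14.4%) and 325 of all 1447 (22.5%). Of the 19, 10 overlapped their day 6 window by less than 1000 bp or shared it with another kept distal window, against 88 of the 1447. With an overlap of at least 1000 bp, 11 lower windows were left, of which 5 had such a neighbour (45.5%), against 292 of 1383 (21.1%). These 5 are not separate sites. They include chr17:23275372-23277371 and chr2:77669929-77671928, each of which overlaps another lower window and shares reads with it. They also include chr6:128728829-128730828 and chr6:128803434-128805433, which lie in the same group of neighbouring windows. The smallest ratio was at chr17:23273593-23275592, downstream, with 39 reads at day 0 and 9 at day 6 (0.277, 0.118 to 0.582), and it overlaps its day 6 window by 187 bp. Its neighbour chr17:23275372-23277371 overlaps it and fell from 27 to 10 reads, and reads in the overlap count for both. Upstream windows chr2:77669929-77671928 and chr2:77671197-77673196 also overlap each other, with 34 and 30 reads at day 0 and 12 and 10 at day 6. The density of their day 0 flanks was 6.01 and 8.66 times the genome mean, so that these windows stood only 1.95-fold and 1.19-fold over the flanks.

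A group of 6 windows between chr6:128725525 and chr6:128809930 showed the loss over a longer stretch. Their summed reads went from 282 to 170 (ratio 0.724, 0.595 to 0.879) on flanks near the genome mean (median 1.32 times). Of the 6, chr6:128803434-128805433 held 55 and 21 reads, chr6:128728829-128730828 53 and 22, and chr6:128767706-128769705 34 and 14. The other three had ratios of 0.744, 0.939 and 1.23, so not all of the 6 were lower.

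A second group of 6, between chr1:172869681 and chr1:172940031, went from 445 to 271 reads (ratio 0.732, 0.627 to 0.853). The window chr1:172915430-172917429 fell from 125 to 49 reads (0.471, 0.331 to 0.660), while chr1:172907810-172909809 held 100 and 80 (0.961, 0.707 to 1.30). The largest group, 10 upstream windows between chr6:114517858 and chr6:114583444, went from 313 to 216 reads (ratio 0.829, 0.694 to 0.989), with flanks at a median of 7.16 times the genome mean in the 5 windows that had a flank value. Its single windows ranged from a ratio of 0.546 to 1.45, and 8 of the 10 lay below 1. The 3 groups were looked at because of these values and carry no test.

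Most kept distal windows stood alone. Chained within 50 kb, the 1447 formed 1240 groups, of which 1122 were single windows, 86 were pairs and 32 held 3 or more. The last held 153 windows (10.6%). Windows listed at day 6 without any day 0 overlap lay within 10 kb of 237 kept distal windows (16.4%, 14.5 to 18.4), against 25.6% (24.3 to 27.0) of the kept middle windows. Distal windows with such a new neighbour had a summed ratio of 1.24 (1.20 to 1.28), and those without 1.31 (1.29 to 1.33).

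The signal of the kept distal windows was more concentrated at the centre than that of the kept middle windows. Within 200 bp of the centre lay 60.4% of the reads at day 0 (60 to 60.9) and 59.9% at day 6 (59.4 to 60.3), against 49.6% and 45.7% at the kept middle windows. These shares were counted about the day 0 centres. About the centre of the overlapping day 6 window, the day 6 shares were 60.4% (60 to 60.9) and 47.7% (47.4 to 48.0). At outer windows not listed again the share about the day 0 centre was 60.2% at day 0 and 40.4% at day 6. The centre of the day 6 window lay a median of 60 bp from the day 0 centre, against 142 bp in the middle. It was within 50 bp for 46.9% (44.3 to 49.5) of the distal windows and for 24.4% (23.0 to 25.7) of the middle ones.

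Part of this sharpness belonged to a set of windows in which read starts piled up on a short stretch at the centre. Reads of a ChIP fragment start at its opposite ends, and outside the windows starts on opposite strands paired most often at 190 bp (day 0) and 170 bp (day 6). In 335 kept distal windows (23.2%, 21 to 25.4), at least 50% of the day 0 read starts within 1000 bp of the centre lay on the plus strand within 50 bp before the centre or on the minus strand within 50 bp after it. These windows are called stacked below, a class defined after the data were seen. The rule adds the strands together, so starts of a single strand could meet it. Windows stacked on both strands were not counted separately. The origin of the stacking was not tested, so whether these reads mark GPS2 binding is not known from these data. Stacked windows made up 2.35% (1.91 to 2.86) of the kept middle windows and 2.75% (1.85 to 3.93) of the outer windows not listed again. The class is a cut through a continuous share: 46 kept distal windows had 40% to 50% and 42 had 50% to 60%, while 92 had 80% to 90% and 83 had 90% or more.

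The stacking was present on day 6 too. The 335 windows held 78.4% of their read starts in that core at day 0 and 77.2% at day 6, and 314 of the 335 reached 50% in the day 6 library too. The other 1112 kept distal windows held 12.0% and 9.96%, and the 3986 kept middle windows that were not stacked 9.72% and 6.52%. In the stacked windows the day 6 centre lay a median of 3 bp from the day 0 centre, against 109 bp in the others. Plus-strand reads made up 69.3% of the core at day 0 and 70.6% at day 6. The deposited reads hold at most 1 start per position and strand, so nothing can be said of repeated reads, and a core of 50 bp on each strand can hold at most 100 starts. The fullest stacked core held 49 at day 0 and 50 at day 6.

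**Figure D4:**
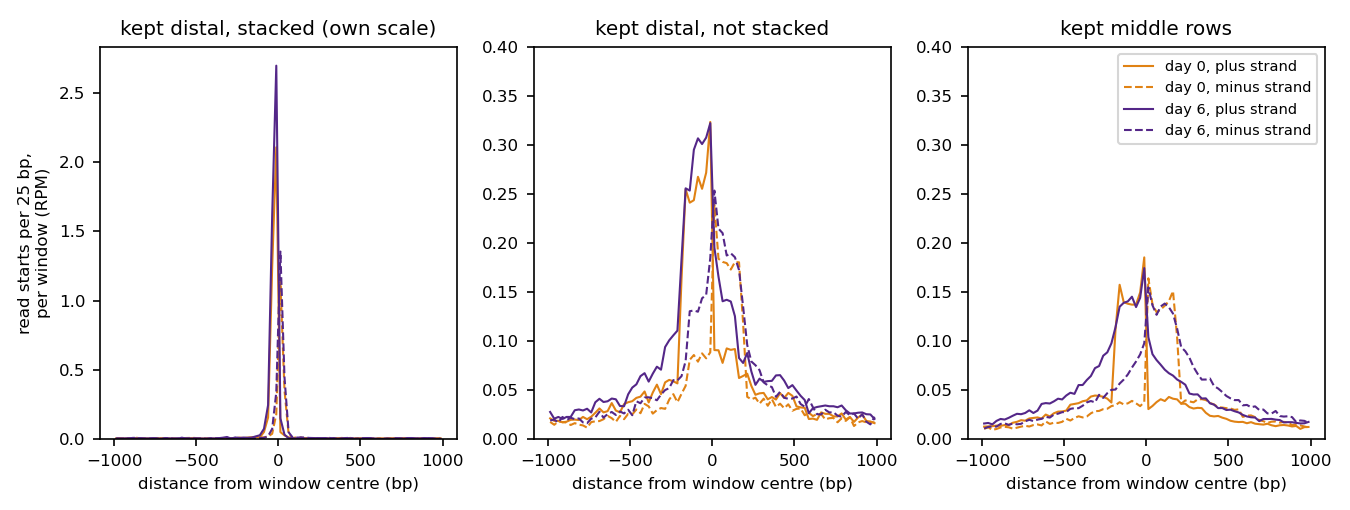
Read starts per 25 bp and window in RPM (y axis) by distance from the window centre (x axis), plus strand solid and minus strand dashed, day 0 orange and day 6 purple. The left panel (335 stacked windows) has its own scale, and 78.4% (day 0) and 77.2% (day 6) of its starts lie in the core within 50 bp of the centre. The centre (1112 other kept distal windows) and right (4082 kept middle windows) panels share a scale and show starts spread over about 200 bp on each side.

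Most stacked windows were listed again at day 6. Of the 364 stacked outer rows 92.0% (88.8 to 94.6) were kept, against 52.1% (49.9 to 54.2) of the 2136 others. Their reads ranged from 7 to 77 at day 0 and from 6 to 84 at day 6, with medians of 23 and 25, so none was among the deepest windows. The summed ratio was 1.28 (1.25 to 1.32), and 1.30 (1.28 to 1.32) in the others. Of the stacked windows 16 were called higher (4.78%) and 2 lower (0.597%), against 123 (11.1%) and 17 (1.53%) of the others. Whether the cap on starts in a core bears on these shares was not tested. The fullest stacked core held 49 (day 0) and 50 (day 6) of the 100 possible starts. The deepest stacked window, chrX:138728413-138730412, held 77 and 69 reads, of which 46 and 41 were in the core. The class made up 23.5% (20.4 to 26.9) of the upstream and 22.8% (19.9 to 26.0) of the downstream windows. On the X chromosome 23 of 38 kept distal windows were stacked (60.5%), and on chromosome 8, which held the most kept distal windows, 15 of 132 (11.4%).

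Windows beyond 100 kb from the reference point stood higher and were sharper than the nearer ones at both ends. From under 20 kb to over 100 kb, the median fold over the flanks at day 6 went from 4.71 to 8.36 upstream and from 4.57 to 7.64 downstream. At day 0 it went from 4.0 to 6.01 and from 4.24 to 6.03. The median reads per window differed little, with 19 and 22 at day 0 nearest and farthest at both ends. The flanks thinned instead, from 1.59 times the genome mean under 20 kb at both ends to 1.01 upstream and 1.03 downstream beyond 100 kb. Among windows with up to 100 reads, the share within 200 bp of the centre at day 6 was 57.0% upstream and 59.9% downstream under 20 kb, and 71.7% at both ends beyond 100 kb. It did not follow distance in between, with 60.9% at both ends at 20 to 50 kb, and 58.0% upstream and 55.0% downstream at 50 to 100 kb. The kept share upstream was 61.0% under 20 kb and 58.4% beyond 100 kb, and downstream 52.3% and 63.9%.

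**Figure D5:**
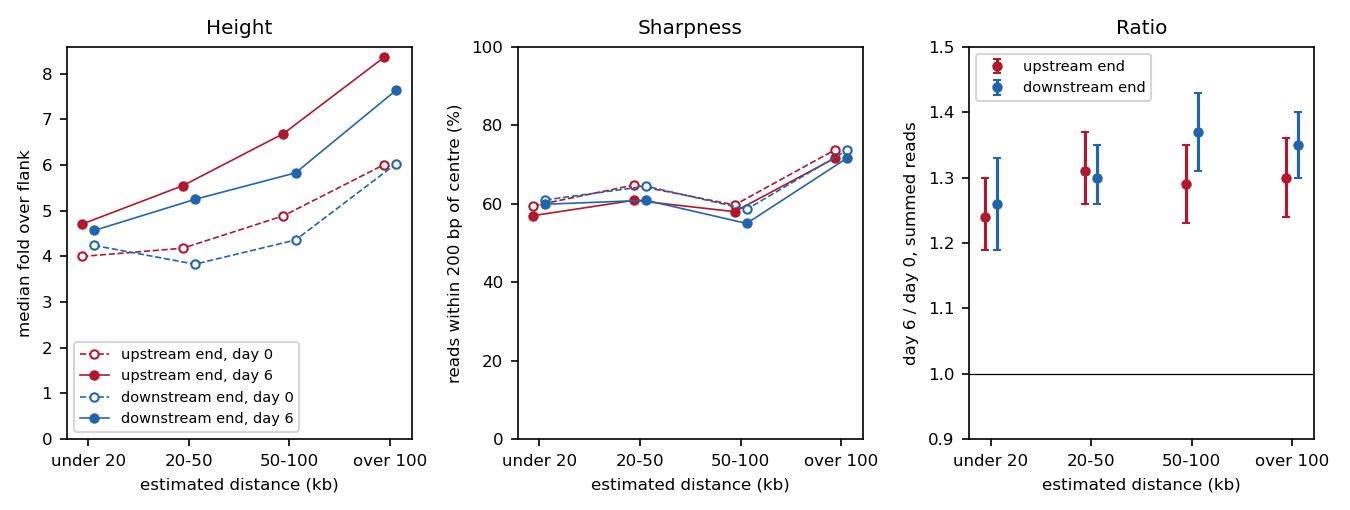
Kept distal windows by estimated distance (x axis, kb), upstream in red and downstream in blue. Left, median fold over the flanks, open points for day 0 and filled for day 6. Centre, reads within 200 bp of the centre in windows with up to 100 reads, in percent. Right, ratio of day 6 to day 0 in the same windows with 95% intervals, on an axis from 0.9. Height and sharpness are greatest beyond 100 kb at both ends, and sharpness does not follow distance below that.

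The share of stacked windows was highest beyond 100 kb. Beyond 100 kb they made up 37.8% (30.4 to 45.7) of the upstream and 37.6% (31.2 to 44.3) of the downstream windows, and in the nearer classes between 14.8% and 20%. Without them, the day 6 share within 200 bp of the centre was 48.0% upstream and 51.5% downstream under 20 kb, and 51.3% and 53.8% beyond 100 kb. At 20 to 50 kb it was 51.5% and 54.8%, above the values of the farthest class, and at 50 to 100 kb 49.7% and 49%, so without the stacked windows sharpness did not follow distance. The median day 6 fold without them was 4.09 upstream and 4.53 downstream under 20 kb, and 6.5 and 6.53 beyond 100 kb. The kept share without them was 57.8% upstream and 47.2% downstream under 20 kb, and 47.7% and 53.5% beyond 100 kb.

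The ratio of day 6 to day 0 lay above 1 at every distance. In windows with up to 100 reads it was 1.24 (1.19 to 1.30) upstream and 1.26 (1.19 to 1.33) downstream under 20 kb, and 1.30 (1.24 to 1.36) and 1.35 (1.30 to 1.4) beyond 100 kb. The highest of these values was 1.37 (1.31 to 1.43), downstream at 50 to 100 kb. In this subset the intervals of all upstream classes overlapped, but over all kept distal windows they did not. There the upstream ratio was 1.20 (1.16 to 1.24) under 20 kb and 1.37 (1.33 to 1.42) at 20 to 50 kb. It was 1.28 (1.23 to 1.33) at 50 to 100 kb and 1.32 (1.28 to 1.37) beyond. The downstream ratio was 1.24 (1.18 to 1.30) under 20 kb, 1.40 (1.35 to 1.46) at 50 to 100 kb and 1.27 (1.24 to 1.31) beyond. Of the 19 lower windows, 10 lay under 20 kb, 6 upstream and 4 downstream. They were 3.52% of the 284 kept distal windows there, against 0.774% of those farther out and 0.922% of all kept windows.

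Heights of single windows were carried over between the days. Over the 1447 windows, Pearson's r of log2(RPM + 1) between the days was 0.902 and Spearman's rho 0.811, and over the 1371 with up to 100 reads 0.804 and 0.779. The kept middle windows gave 0.767 and 0.618. Spearman's rho of the reads was 0.905 in the stacked kept distal windows and 0.777 in the others. In kept middle windows that were not stacked it was 0.608. The points share their libraries and the overlap rule, so these are descriptions. The central 50% of windows held 14 to 30 day 0 reads at the kept distal and 16 to 25 at the kept middle windows. Of the 100 windows with the most reads, 84 were the same on both days.

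The deepest windows fell into a class with ordinary flanks and a class on dense background. Of the 76 windows with over 100 reads in either library, which held 34.6% of the kept distal reads at day 0 and 34.2% at day 6, 44 had flanks at or below 5 times the genome mean. These 44 stood at a median of 37.0-fold over their flanks at day 0 and 52.1-fold at day 6, with a summed ratio of 1.38 (1.34 to 1.42). The other 32 stood at 2.10-fold and 2.58-fold, with a ratio of 1.18 (1.15 to 1.22).

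Among the first class, the highest fold was at chr14:18208563-18210562, downstream, with 924 and 862 reads (217 and 243 RPM). It stood at 318-fold over its flanks at day 0 and 379-fold at day 6, and its ratio was 1.12 (1.02 to 1.23). The highest upstream fold was at chr2:22440329-22442328, with 488 and 573 reads (115 and 162 RPM), 163-fold and 252-fold over the flanks and a ratio of 1.41 (1.25 to 1.6). Window chr2:22438397-22440396 overlaps its edge, with 276 and 383 reads (ratio 1.67, 1.42 to 1.95). A further upstream pair, chr13:74993875-74995874 and chr13:74995329-74997328, held 278 and 272 reads at day 0 and 407 and 392 at day 6, with ratios of 1.76 (1.51 to 2.06) and 1.73 (1.48 to 2.03). These windows overlap, so their reads are partly the same.

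Some of these tall windows were narrow and others filled the window. At chr12:97456439-97458438 (299 and 302 reads, 103-fold and 133-fold) 264 of the day 0 reads and 273 of the day 6 reads lay within 200 bp of the centre. At chr9:35054078-35056077 (351 and 349 reads, 109.6-fold and 154-fold) these were 301 and 310. At chr2:22440329-22442328 only 66 of 488 and 85 of 573 did.

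The second class lay in stretches of dense background. In all, 61 kept distal windows (4.22%) had day 0 flanks above 5 times the genome mean. They held 19.4% of the kept distal reads at day 0 and 17.3% at day 6, at a median of 1.80-fold and 2.06-fold over the flanks and a summed ratio of 1.16 (1.13 to 1.19). The most reads of any kept distal window were at chr2:98466581-98468580, with 958 and 950, on flanks at 46.6 times the genome mean, so that it stood 7.09-fold and 7.46-fold over them. A segment of chromosome 10 (116600001 to 117200000) held 16 kept distal windows with 3538 reads at day 0 and 3587 at day 6, at a ratio of 1.22 (1.16 to 1.28). There chr10:117172350-117174349, with 361 and 343 reads, stood 1.33-fold and 1.28-fold over flanks of 93.6 times the genome mean. Without the 61, the summed ratio of the kept distal windows was 1.33 and their fold over the flanks 6.81 at day 0 and 8.90 at day 6.

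The kept distal windows lay on all autosomes and the X chromosome, with 1 on the Y. Chromosome 8 held 132 (0.999 per Mb) and chromosome 2 held 125 (0.687 per Mb), and the X chromosome 38 (0.230 per Mb). Kept distal windows made up 35.8% of the day 0 windows of the X chromosome and 11.1% of those of chromosome 7. The summed ratio by chromosome went from 1.17 (1.12 to 1.22) on chromosome 6 to 1.5 (1.42 to 1.59) on chromosome 13, and was above 1 on each. On chromosome 3, 19 of 95 were called higher (20%), against 9.61% of all kept distal and 10.3% of all kept windows. It was named because its share was the highest. Chromosome 13 had 10 of 56, chromosome 17 had 11 of 67 and chromosome 15 had 15 of 93, while chromosome 6 had 3 of 102. The share among all kept windows of chromosome 3 is not given here.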

How the data were processed

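The authors deposited, for each of the 2 libraries, aligned reads of 36 bases and a list of windows, positioned on the build mm8 per the submitters' processing notes, which also list Bowtie and HOMER without versions. How each tool was set, and the peak threshold, is not stated in the labels. A score column that the authors deposited with the reads never varied and was not used. The window lists held positions only. Members and lists were chosen with earlier results of these data known.

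Read starts were moved by 95 bp (day 0) or 85 bp (day 6) and counted in each window with Python 3.11.15, numpy 2.4.6, pandas 2.3.3 and scipy 1.17.1. The scripts were tested on simulated data. Flank densities used windows with at least 2 kb free of windows within 5 kb. The fold of a single window used its flank density or the genome mean, whichever was higher, and summed folds the flanks alone. Ratios carry exact conditional binomial intervals, shares exact Clopper-Pearson intervals, all at 95%. Single ratios in medians had 0.5 reads added. A count of 0 allows 3 reads. Reads carry no molecular identifiers, so intervals cover counting error only.

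Windows were named by rank: the most reads, the highest fold over the flanks, the largest and smallest ratios with at least 20 reads in a library, and the most neighbours, 5 or fewer per end and part. Groups of neighbouring windows and stacked windows were added after their values were seen. Alternatives covered shift, width, scaling, background, row limits, overlap and dense windows. Those without dense flanks, without stacked windows and scaled to the kept middle windows were added after the data were seen. Sequences and gene names were not used here, because no genome or annotation of mm8 was at hand.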

Additional observations from a re-analysis of the deposited data

How the results depend on the processing

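No paired analysis was possible because the labels carry no replicate numbers and there was 1 library a day. With the kept middle windows set to a median ratio of 1 (added after seeing the data), which shifts all ratios alike, the summed ratio was 0.980 (0.977 upstream, 0.983 downstream), the median ratio 0.965, and 22 windows were higher and 58 lower. Scaling to background bins gave a summed ratio of 1.38, a median of 1.36 and 12 lower windows, and moved log2 ratios by 0.09. With the flank density subtracted the values were 1.37 and 1.34, with 228 higher and 41 lower. Counting the central 500 bp gave a median of 1.25 and 37 lower.

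The outer 800 rows of each end gave a summed ratio of 1.33 and 5 lower windows, and the outer 500 rows 55 higher and 4 lower. An overlap of at least 1000 bp left 11 lower and 55.3% kept, centres within 200 bp left 10 lower and 42.7% kept, and centres within 1000 bp 55.3% kept. A ratio of 1.5 in place of 2 called 427 higher and 59 lower. Without windows of over 100 reads the ratio of the ends was 0.969 (0.940 to 0.999), which leaves out 1, and in the other 12 alternatives it stayed within the interval of 0.970 to 1.02. Without windows on dense flanks (added after seeing the data) the summed ratio was 1.33. Without stacked windows (added after seeing the data) 52.1% were kept.

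The fold over the flanks at day 0 and day 6 was 5.41 and 6.86 with flanks of 10 kb, 11.6 and 16.1 against the genome mean, 13.7 and 17.4 in the central 500 bp, 5.51 and 7.08 with centres within 200 bp, 6.26 and 8.38 in the outer 800 rows, 7.05 and 9.35 in the outer 500 rows, 6.20 and 7.98 without the chromosome 10 segment, 6.81 and 8.90 without dense flanks, and 4.73 and 6.00 without stacked windows. It was higher at day 6 in each, but all of these windows were chosen because the day 6 list holds them. The cause of these moves was not tested beyond what each alternative changes by construction. A median of about 20 reads a window limits every single ratio.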
